A study of Rattus norvegicus with 4 samples.

Results

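Keratins are the intermediate filament proteins of epithelial cells, and the expression table of infected rat middle ear mucosa holds 44 keratin gene symbols. They were found as every feature whose gene name is KRT followed by a number and at most 1 letter, which gave 53 features of 27832 in the table and 44 gene symbols of 17509 distinct names. Where a symbol had several features, the one with the highest mean over the libraries stands for it, and the others are named below. The study asked how the mucosa responds when Staphylococcus aureus (MRSA, a methicillin-resistant strain) and Pseudomonas aeruginosa (PA) colonize it alone or together. Sprague-Dawley (SD) rats received 50 µL of medium (Media), MRSA, PA or a mixed culture (MRSA + PA) into the right middle ear, injected across the eardrum. The bacterial suspensions held 10000000 CFU (colony-forming units), and the mucosa of the bulla, the bony capsule of the middle ear, was scraped 1 week later. The rats were pathogen-free before inoculation, and the sources name no engineered allele and no drug for any group. The age of the rats, and the number of rats pooled into a library, are not stated.

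The polyadenylated RNA of each condition was sequenced as 1 library, so there are 4 libraries and no replicates. No test could be made, and each value below compares those libraries and not the conditions. Levels are FPKM (fragments scaled to transcript length and library size), folds are plain ratios of FPKM, and log2 differences were taken after 0.1 FPKM was added to both libraries. The table gives no counts, so the counting error of a value is unknown. The steps between the lowest values put the depth of MRSA, PA and MRSA + PA at about 1.13, 1.21 and 1.09 times that of Media. These are rough, being the most common ratio, shared by 37 of 183, 18 of 171 and 27 of 166 features. The tissue label was checked on marker lists. All 13 genes of a pan-epithelial list were present in every library, with a summed level of 656, 680.2, 839 and 666 FPKM for Media, MRSA, PA and MRSA + PA, and so were all 11 matched ciliated cell genes. A list of 8 skeletal muscle genes stood apart, at 7035, 2707, 4.21 and 1.76 FPKM in the same order. The tissue is bulk mucosa, in which fewer cells of a type and less RNA per cell cannot be told apart.

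A keratin filament is built from pairs of a type I (acidic) and a type II (basic or neutral) keratin, so each epithelium expresses at least 1 of each. Simple and airway epithelia use KRT8, KRT18, KRT19 and KRT7. The basal layer of stratified and pseudostratified epithelia uses KRT5 with KRT14 or KRT15, the upper layers of epidermis use KRT1 and KRT10, and wet stratified mucosae use KRT4 and KRT13. KRT6 and KRT17 appear in keratinocytes activated by wounding, and a separate set of keratins makes hair. The normal middle ear is lined by a thin mucosa that ranges from flat and cuboidal cells to a ciliated, secretory epithelium with basal cells. The eardrum and ear canal beside it are covered on the outside by keratinizing epidermis.

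The upstream sequences of 4 keratins that stand for the patterns described below are shown first. KRT10 was high in PA and low elsewhere, KRT5 was highest in PA among levels that were high throughout, KRT8 was close in all libraries, and KRT4 was highest in Media. Each sequence is the 250 bases before the RefSeq transcription start (build GRCr8), read 5′ to 3′ on the gene's strand, which is the minus strand for all 4. They lie at chr10:84839161-84839410 for KRT10, chr7:134730570-134730819 for KRT5, chr7:135010340-135010589 for KRT8 and chr7:134930714-134930963 for KRT4. Capitals mark letters known as the TATA box, written TATAAA, those known as the CCAAT box, those bound by AP-1 factors, written TGANTCA, and those bound by TFAP2 factors, written GCCNNNGGC, on either strand.
KRT10: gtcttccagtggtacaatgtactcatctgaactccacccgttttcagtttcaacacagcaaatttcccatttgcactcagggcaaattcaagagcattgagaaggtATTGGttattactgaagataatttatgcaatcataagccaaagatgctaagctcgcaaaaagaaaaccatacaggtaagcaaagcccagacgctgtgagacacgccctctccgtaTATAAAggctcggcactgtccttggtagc
KRT5: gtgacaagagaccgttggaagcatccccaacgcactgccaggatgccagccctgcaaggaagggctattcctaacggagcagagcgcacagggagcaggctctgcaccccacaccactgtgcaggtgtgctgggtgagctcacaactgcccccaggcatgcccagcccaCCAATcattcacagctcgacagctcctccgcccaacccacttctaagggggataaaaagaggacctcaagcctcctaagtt
KRT8: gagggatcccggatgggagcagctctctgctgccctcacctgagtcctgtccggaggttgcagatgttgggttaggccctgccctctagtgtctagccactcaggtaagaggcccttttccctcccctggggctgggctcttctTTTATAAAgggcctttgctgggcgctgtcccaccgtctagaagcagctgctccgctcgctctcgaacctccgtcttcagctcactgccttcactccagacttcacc
KRT4: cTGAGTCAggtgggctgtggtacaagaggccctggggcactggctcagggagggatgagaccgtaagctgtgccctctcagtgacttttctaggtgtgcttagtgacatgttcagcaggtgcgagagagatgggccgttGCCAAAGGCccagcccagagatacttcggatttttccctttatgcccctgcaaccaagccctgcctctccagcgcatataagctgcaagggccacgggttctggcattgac
The KRT10 sequence holds TATAAA 29 bases before the start and CCAAT, read on the other strand, 144 bases before it. KRT5 has CCAAT 81 bases before the start and none of the other letters. KRT8 has TATAAA on both strands in overlapping positions 106 and 104 bases upstream. KRT4 has TGANTCA 249 bases and GCCNNNGGC 111 bases before its start. The RefSeq table held this window for 31 of the 44 symbols. TATAAA was found in 18 of these 31, against 12.9% of all 33469 promoters, and CCAAT in 15 of 31, against 34.0%. TGANTCA was found in 1 of 31 (KRT4) against 6.34%, and GCCNNNGGC in 4 of 31 (KRT18, KRT4, KRT42 and KRT9) against 12.6%. These are matches of letters, not binding sites.

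The keratins together were most abundant in PA. With 1 feature per symbol, the summed level was 687 FPKM in Media, 713 with MRSA, 3147 with PA and 1042 with MRSA + PA, which is 1.04, 4.58 and 1.52 times Media in the 3 inoculated libraries. In PA the sum was higher than in every other library, and MRSA was close to Media. The size of this sum depends on which feature stands for a symbol, and with the longest feature of each symbol it was 675, 691, 2542 and 998 FPKM. Among features of at least 300 bp, keratins took 0.0974% of the total FPKM in Media, 0.105% with MRSA, 0.431% with PA and 0.154% with MRSA + PA.

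Of the 44 symbols, 16 averaged 1 FPKM or more over the 4 libraries. A further 5 (KRT12, KRT76, KRT13, KRT2 and KRT75) reached 1 FPKM in at least 1 library, and 23 stayed under it in all 4, with 0.305 FPKM as their highest value. KRT9, KRT25, KRT27, KRT72, KRT81, KRT84 and KRT85 make up the 7 symbols listed at 0 in every library. Among the 16, the highest level was in PA for 13, in Media for 2 (KRT4 and KRT19) and in MRSA + PA for 1 (KRT18), and the lowest was in Media for 10. KRT1 and KRT78 passed the mean only through PA, since their other 3 libraries average under 1 FPKM. Their place among the 13 was thus fixed by the filter. KRT78 was listed at 0 in Media, MRSA and MRSA + PA alike, so its count as lowest in Media is a tie. The share of all features that are highest in PA or lowest in Media was not computed, so these counts have no background beside them.

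**Figure D1:**
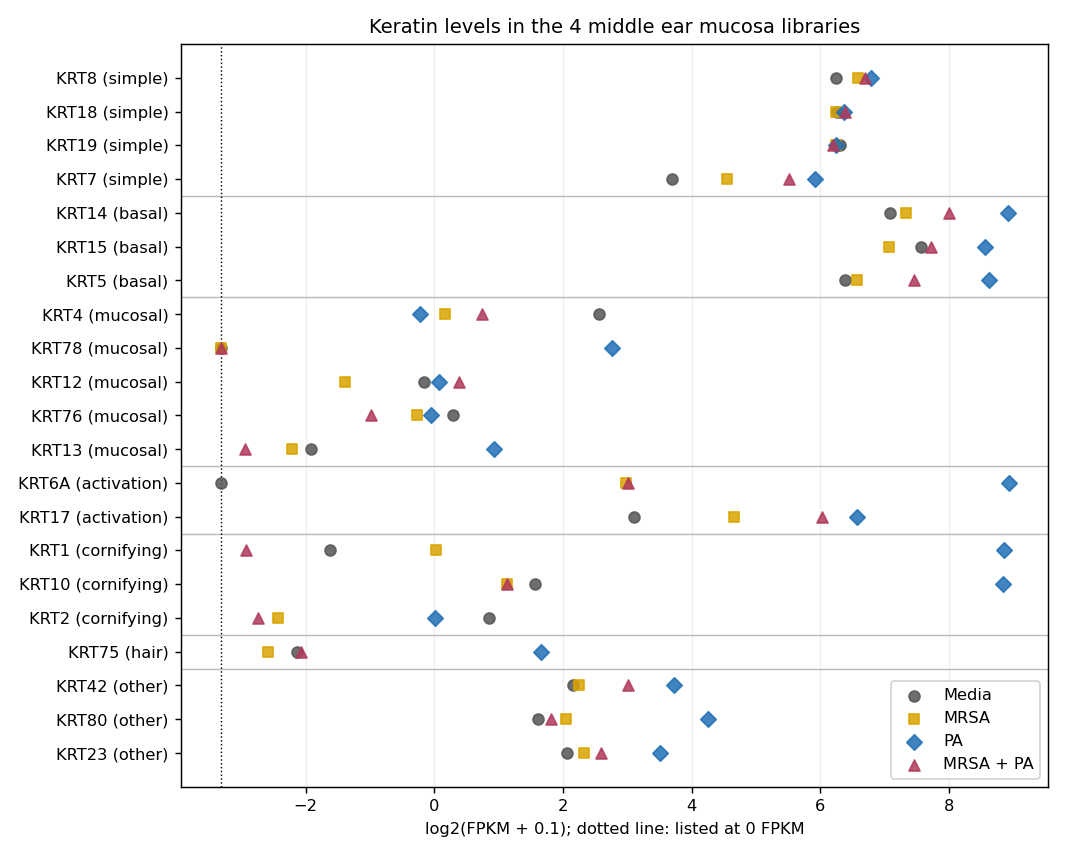
Level of the 21 keratins that reach 1 FPKM in at least 1 library, as log2(FPKM + 0.1) on the x axis, with 1 point per library and the keratins grouped on the y axis by where they are known to be expressed. KRT18 and KRT19 sit in the same place in all 4 libraries, while KRT1 and KRT10 sit near the top of the axis in PA and low in the other 3 libraries.

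The simple epithelial keratins were abundant in every library and, apart from KRT7, close to level. KRT19, a type I keratin of ductal and airway epithelium that lacks most of the usual tail domain, was at 78.9, 75.8, 75.7 and 73.2 FPKM for Media, MRSA, PA and MRSA + PA. KRT18, the type I partner of KRT8, had levels of 76.5, 75.9, 82.3 and 83.7 FPKM in that order. The highest library was 1.08 times the lowest for KRT19 and 1.10 times for KRT18. KRT8, the type II partner, was at 76.1, 96.2, 111 and 103 FPKM, so that PA stood highest at 1.45 times Media. KRT18 had 2 further features, on chromosomes 10 and 17, and both were at 0 in every library.

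KRT7, a type II keratin of glandular and airway epithelium, was the exception among the simple keratins. Its level was 12.9 FPKM in Media, 23.4 with MRSA, 60.4 with PA and 45.4 with MRSA + PA. All 3 inoculated libraries were above Media, by 1.81, 4.68 and 3.52-fold, and PA and MRSA + PA stood 1.33-fold apart. KRT20, known from intestine and urothelium, did not exceed 0.141 FPKM in any library. The simple group summed to 244, 271, 329 and 305 FPKM. It made up 35.6% of keratin FPKM in Media, 38.0% with MRSA, 10.5% with PA and 29.3% with MRSA + PA. Such shares depend on the feature that stands for a symbol. With the longest feature of each symbol the simple share in PA was 12.9%.

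The basal keratins held the largest share of keratin FPKM in all 4 libraries, and their levels were highest in PA. KRT14, the main type I keratin of basal cells, was at 136 FPKM in Media, 161 with MRSA, 483 with PA and 256 with MRSA + PA. KRT5, its type II partner, was at 83.6, 95.4, 393 and 175 FPKM. For both, MRSA was 1.18 (KRT14) and 1.14 (KRT5) times Media, PA was highest (3.55-fold above Media for KRT14 and 4.70-fold for KRT5), and MRSA + PA lay between (1.88 and 2.095-fold). KRT15, a type I keratin of basal cells in stratified epithelia, was at 189, 133, 378 and 210.0 FPKM. KRT15 was therefore lowest in MRSA, at 0.704 times Media, and its PA level was 2.00 times Media with a log2 difference of 0.997, just under the 2-fold line. Summed, the basal group was at 409, 389, 1254 and 641 FPKM, or 59.5, 54.6, 39.8 and 61.5% of keratin FPKM for Media, MRSA, PA and MRSA + PA. Its share was thus lowest in PA, the library in which its summed level was highest. With the longest feature of each symbol the basal share in PA was 44.7%, still the lowest of the 4.

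KRT5 is listed as 2 features that lie side by side. The one that stands for it spans 1087 bp on the plus strand of chromosome 7 (141116259 to 141117345 in the coordinates of the table, which names no build) and is marked in the table as absent from the annotation. The other spans 219029 bp on the minus strand from 141117848 to 141336876, starts 502 bp further on, and encloses the features of KRT72, KRT73, KRT2, KRT1, KRT77, KRT76 and KRT4. This long feature was at 72.1, 80.7, 275 and 139 FPKM for Media, MRSA, PA and MRSA + PA, and had the same order of libraries. The short feature was 1.16, 1.18, 1.43 and 1.26 times the long one, so the ratio was highest in PA. Whether fragments of enclosed genes entered the value of the long feature was not tested. The KRT14 feature spans 34947 bp on chromosome 10 (87910513 to 87945459). In the RefSeq order Krt16, the usual type I partner of KRT6A, lies between Krt14 and Krt17, and no feature of the table carries the name KRT16. Whether fragments of Krt16 entered the KRT14 value was not tested.

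The cornifying keratins were abundant in PA alone. KRT10, the type I keratin of suprabasal epidermal cells, was at 2.85 FPKM in Media, 2.099 with MRSA, 456 with PA and 2.099 with MRSA + PA. KRT1, its type II partner, was at 0.224, 0.917, 465 and 0.0308 FPKM. PA was 160.1-fold above Media for KRT10 and 2078-fold for KRT1, against levels under 3 FPKM in each of the other libraries. In rank among the 27563 features of at least 300 bp, KRT1 was number 192 and KRT10 number 196 in PA, next to KRT14 (183) and KRT5 (226). In Media the ranks of KRT1 and KRT10 were 19326 and 12788, while KRT14 ranked 710 and KRT5 1174.

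The other members of the cornifying group did not share this pattern. KRT2, a type II keratin of the upper spinous and granular layers, was at 1.71 FPKM in Media, 0.0861 with MRSA, 0.909 with PA and 0.0504 with MRSA + PA, so that Media was the highest library. KRT77 was at 0, 0.152, 0.0246 and 0 FPKM, and KRT9, the keratin of palm and sole skin, was listed at 0 in all 4. The group summed to 4.78, 3.25, 922 and 2.18 FPKM for Media, MRSA, PA and MRSA + PA. In that order it made up 0.696, 0.456, 29.3 and 0.209% of keratin FPKM. With the longest feature of each symbol its share in PA was 36.3%.

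Genes of the cornified layer, the dead outer sheet of epidermis, were also high in PA. A list of 20 such genes had 16 matches in the table, with a summed level of 3.11 FPKM in Media, 4.66 with MRSA, 687 with PA and 4.65 with MRSA + PA, and 10 of the 16 were listed at 0 in Media. SBSN (suprabasin, a protein of differentiating keratinocytes) was at 0.428, 0.922, 172 and 0.489 FPKM. SPRR1A, a cross-linked precursor of the cornified envelope, was at 0, 0.125, 161 and 0.204 FPKM, and CNFN (cornifelin, a further envelope protein) was at 47.7 FPKM in PA and at 0 in the other 3. These genes had the KRT1 and KRT10 pattern of 1 high library. KRTDAP, a secreted protein of differentiating keratinocytes, was at 45.3 FPKM in PA and listed at 0 elsewhere, FLG (filaggrin, which bundles keratin filaments) was at 8.84 FPKM in PA and no higher than 0.0263 elsewhere, and SPRR3 was at 0 in all 4. Of the 12 genes with a mean of at least 1 FPKM, all but CDSN passed that mean only through PA, so a count of them as higher in PA was fixed by the filter. CDSN (corneodesmosin), which did not depend on PA to pass, was at 1.57, 2.21, 32.6 and 2.14 FPKM. The loricrin (LOR), SPRR1B, DSG1 and LCE3D symbols found no feature. The part that epidermis beside the mucosa had in these levels was not tested.

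**Figure D2:**
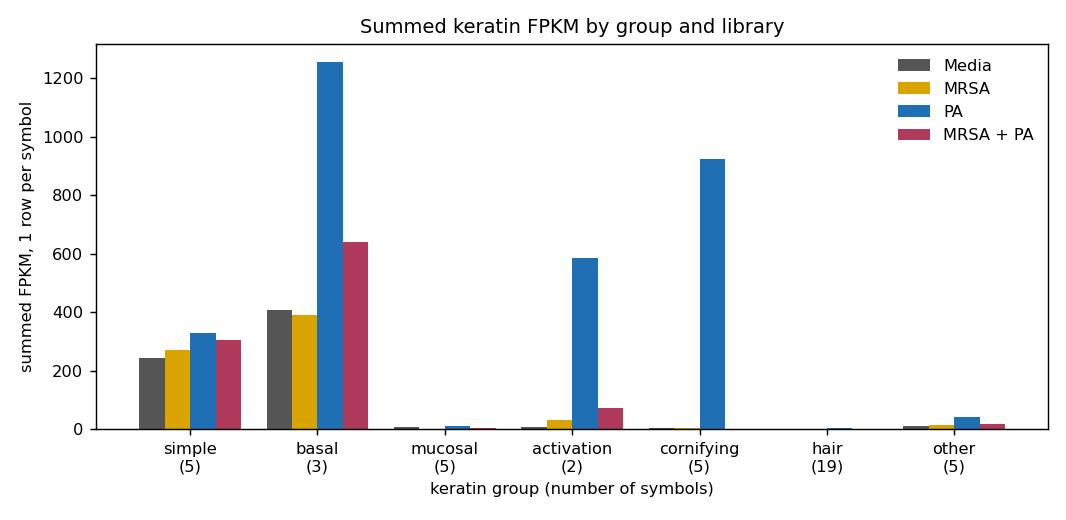
Summed FPKM (y axis, from 0) of 7 keratin groups, with 1 feature per symbol, the number of symbols in parentheses and 1 bar per library. The cornifying bar is 922 FPKM in PA and no higher than 4.78 in the other libraries, while the simple bars lie between 244 and 329.

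The keratins of activated keratinocytes, KRT17 and KRT6A, were higher in all 3 inoculated libraries than in Media by the features that stand for them, and highest in PA. KRT17, a type I keratin induced in wounded epidermis, was at 8.45 FPKM in Media, 25.1 with MRSA, 95.2 with PA and 65.3 with MRSA + PA, which is 2.97, 11.3 and 7.72-fold above Media. MRSA + PA was 2.60-fold above MRSA for this gene. The feature that stands for KRT6A, its type II counterpart, was listed at 0 in Media and was at 7.77 FPKM with MRSA, 489 with PA and 8.00 with MRSA + PA. KRT17 was thus high in both libraries inoculated with PA, and KRT6A in PA alone.

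KRT6A has 5 features, and they gave very different levels. The 208 bp feature above, one of 237 bp and one of 11869 bp lie on chromosome 1, and one of 250 bp and the annotated gene of 35918 bp lie on chromosome 7. In PA they were at 489, 398, 48.0, 146 and 4.56 FPKM in that order. In the other libraries the 237 bp and 11869 bp features were listed at 0, the 250 bp feature was at 3.69, 3.30 and 15.9 FPKM in Media, MRSA and MRSA + PA, and the annotated gene was at 0.0264, 0.0470 and 0.0975. PA was therefore the highest library in all 5, while the level of KRT6A and its difference between Media and MRSA or MRSA + PA depended on the feature. By the annotated gene, the activation group summed to 8.48, 25.2, 99.7 and 65.4 FPKM in place of 8.45, 32.9, 584 and 73.3. The 3 shortest features lie under 300 bp, close to or below the length of the sequenced fragments, where FPKM is unsteady.

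The mucosal keratins were low in every library and had no common pattern. KRT4, the type II keratin of wet stratified mucosae, was at 5.80 FPKM in Media, 1.02 with MRSA, 0.753 with PA and 1.57 with MRSA + PA. Media was 5.67, 7.70 and 3.70-fold above MRSA, PA and MRSA + PA, so that Media was the highest library. Its type I partner KRT13 was at 0.166, 0.115, 1.81 and 0.0301 FPKM and thus highest in PA. KRT78 was at 6.66 FPKM in PA and listed at 0 in the other 3 libraries. KRT12, known from cornea, was at 0.794, 0.282, 0.947 and 1.21 FPKM, and KRT76, known from the hard palate, was at 1.12, 0.731, 0.865 and 0.407. The group summed to 7.88, 2.15, 11.0 and 3.21 FPKM.

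KRT80, KRT42 and KRT23, the further keratins outside these groups with a mean of at least 1 FPKM, were highest in PA. KRT80, a type II keratin found at desmosomes of differentiating cells, was at 2.97, 4.03, 18.9 and 3.40 FPKM for Media, MRSA, PA and MRSA + PA, or 6.38-fold above Media in PA and 1.15-fold in MRSA + PA. KRT42, a type I keratin that is functional in rodents, was at 4.35, 4.63, 13.1 and 7.92 FPKM. KRT23, also type I, was at 4.07, 4.94, 11.3 and 5.94 FPKM. For these genes MRSA + PA lay between Media and PA. KRT222 and KRT24 did not exceed 0.121 FPKM.

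Of the 19 hair keratins none reached a mean of 1 FPKM, and 6 were listed at 0 in all 4 libraries. KRT75, known from the companion layer of the hair follicle, was the exception in PA, at 0.127, 0.0668, 3.07 and 0.139 FPKM for Media, MRSA, PA and MRSA + PA. A further KRT75 feature was at 0 in all 4. The other 18 did not exceed 0.305 FPKM, a value reached by KRT82 in Media. The 34 features of keratin-associated proteins, which embed hair keratins in the hair shaft, were all at 0 in every library. A list of 11 hair follicle genes summed to 6.46, 5.78, 8.61 and 5.26 FPKM, most of it from LGR5 (a stem cell receptor that is not specific to hair) at 5.14, 4.27, 6.25 and 3.95 FPKM. SHH, KRTAP11-1 and KRTAP8-1 of that list were at 0 throughout, and TCHH (trichohyalin of the inner root sheath) was at 0.342, 0.529, 0.238 and 0.363 FPKM.

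Compared with Media, MRSA differed in few keratins. Of the 16 with a mean of at least 1 FPKM, KRT6A, KRT17 and KRT1 were at least 2-fold higher in MRSA and KRT4 at least 2-fold lower. Over all 15944 features of that mean, 8.47% were at least 2-fold higher and 4.95% lower. KRT1 counts here at under 1 FPKM in both libraries, and KRT6A only by its 208 bp feature, since the annotated gene differed by 0.22 on the log2 scale. The median log2 difference was 0.22 for the keratins and 0.05 for all features. The 3 comparisons with Media share that library, so their values are set side by side and not counted as separate evidence.

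Compared with Media, PA differed in most of them. KRT7, KRT14, KRT5, KRT78, KRT6A, KRT17, KRT1, KRT10, KRT42, KRT80 and KRT23, which are 11 of the 16, were at least 2-fold higher in PA, against 10.0% of all features. KRT4 alone was at least 2-fold lower, against 7.80% of all features. Leaving out KRT1 and KRT78, which passed the mean through PA, 9 of 14 were higher and 1 was lower. KRT6A is among the 9 by its 208 bp feature. By its annotated gene it too would have passed the mean only through PA. The median log2 difference of the 16 was 2.02, and 1.70 without KRT1 and KRT78, against 0.07 over all features. By group it was 0.32 for the 4 simple keratins and 1.83 for the 3 basal keratins of that mean. Of the 5 cornifying keratins, KRT1 and KRT10 were at 10.49 and 7.27, KRT77 at 0.32, KRT9 at 0 and KRT2 at -0.84. With the libraries rescaled to the pan-epithelial list, PA values drop by 0.70 on the log2 scale against Media, and KRT42 (0.88) and KRT23 (0.76) then fall short of 2-fold.

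MRSA + PA was at least 2-fold apart from Media in 6 of the 16 keratins, from MRSA in 2 and from PA in 6. Compared with Media, KRT7, KRT5, KRT6A and KRT17 were at least 2-fold higher, against 7.78% of all features, and KRT4 and KRT1 at least 2-fold lower, against 7.83%. The KRT5 difference of 1.07 on the log2 scale was 0.94 by its long feature and 0.88 after the pan-epithelial rescaling, and the KRT6A difference was 0.64 by the annotated gene. Compared with MRSA, KRT17 was higher and KRT1, under 1 FPKM in both, lower in MRSA + PA, against 1.61% and 5.73% of all features. Compared with PA, none of the 16 was at least 2-fold higher, against 2.50% of features, and KRT5, KRT78, KRT6A, KRT1, KRT10 and KRT80 were lower, which is 6 of 16 against 4.27%. Without KRT1 and KRT78, for which being below PA was fixed by the filter, 4 of 14 were lower, among them KRT6A by its 208 bp feature. With the pan-epithelial rescaling KRT4 was higher in MRSA + PA than in PA by 1.42 on the log2 scale (1.05 with 0.01 FPKM added and no rescaling), and the KRT5 difference was -0.65. The median log2 difference of the 16 was 0.20 between MRSA + PA and MRSA and -0.88 between MRSA + PA and PA. With KRT1 and KRT78 left out, these medians were 0.42 and -0.78.

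Compared with MRSA, PA had 12 of the 16 keratins at least 2-fold higher, against 3.54% of all features, and none lower, against 5.03%. These were the 11 keratins higher in PA than in Media and KRT15, which was 2.84-fold higher. Leaving out KRT1 and KRT78, whose place among the 16 rests on PA, 10 of 14 were higher, among them KRT6A by its 208 bp feature. With the pan-epithelial rescaling KRT15 (0.97), KRT42 (0.95), KRT7 (0.83) and KRT23 (0.65) fall short of 2-fold on the log2 scale, and 8 of the 16 are higher. KRT8, KRT18 and KRT19 were within 2-fold in all 6 comparisons, with log2 differences from -0.11 to 0.54. KRT4, at 1.02 FPKM in MRSA and 0.753 in PA, had a log2 difference of -0.40.

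**Figure D3:**
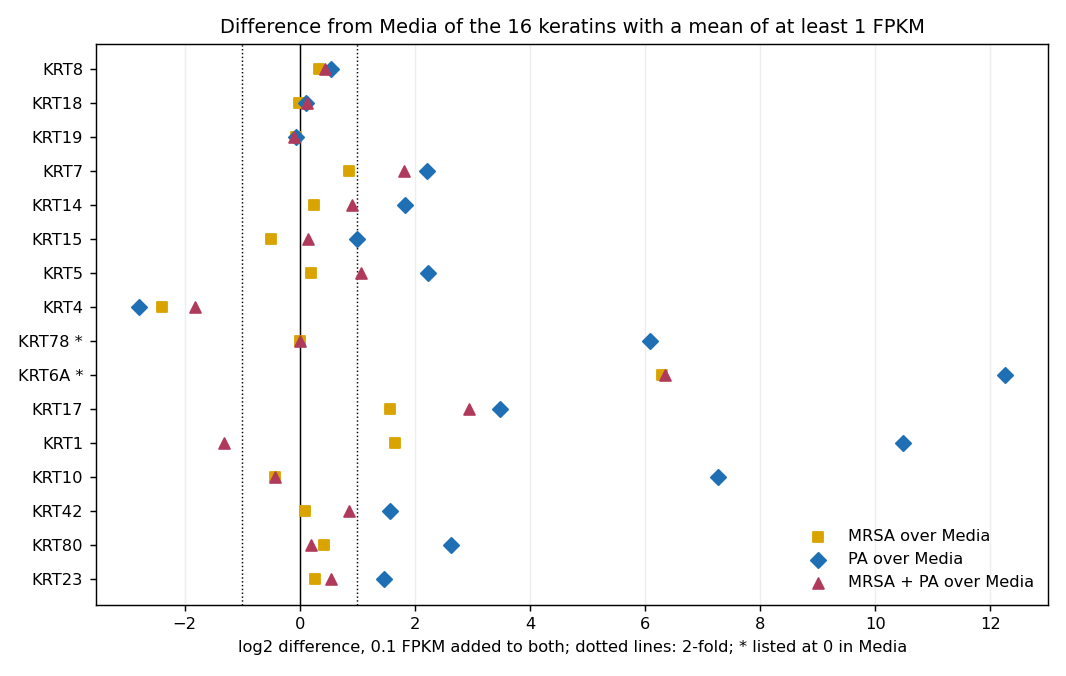
Log2 difference from Media (x axis, 0.1 FPKM added to both libraries) of the 16 keratins with a mean of at least 1 FPKM, with 1 point for each inoculated library and dotted lines at 2-fold. KRT10 lies at 7.27 in PA and at -0.42 in both other libraries, KRT4 lies below -1 in all 3, and asterisks mark KRT78 and KRT6A, which are listed at 0 in Media so that their position depends on the value added.

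KRT1 and KRT10, and likewise KRT5 and KRT14, were closest to equal FPKM in PA. The KRT1/KRT10 ratio was 0.0785 in Media, 0.437 with MRSA, 1.02 with PA and 0.0147 with MRSA + PA, but outside PA it divides levels under 3 FPKM. KRT5/KRT14 was 0.615, 0.593, 0.814 and 0.685, and KRT8/KRT18 was 0.994, 1.27, 1.34 and 1.23. For KRT5 and KRT14 the ratio varied less between libraries than either level did. KRT7/KRT19 was 0.164, 0.309, 0.799 and 0.621, KRT7 being the member whose level differed. KRT4/KRT13 was 34.9, 8.88, 0.417 and 52.0, but outside PA it divides by KRT13 levels of 0.166 FPKM or less, so its size there has little meaning. Over the whole family, type II over type I FPKM was 0.368 in Media, 0.476 with MRSA, 0.969 with PA and 0.478 with MRSA + PA. That balance depends on the features chosen, and with the longest feature per symbol it was 0.345, 0.430, 0.591 and 0.415.

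**Figure D4:**
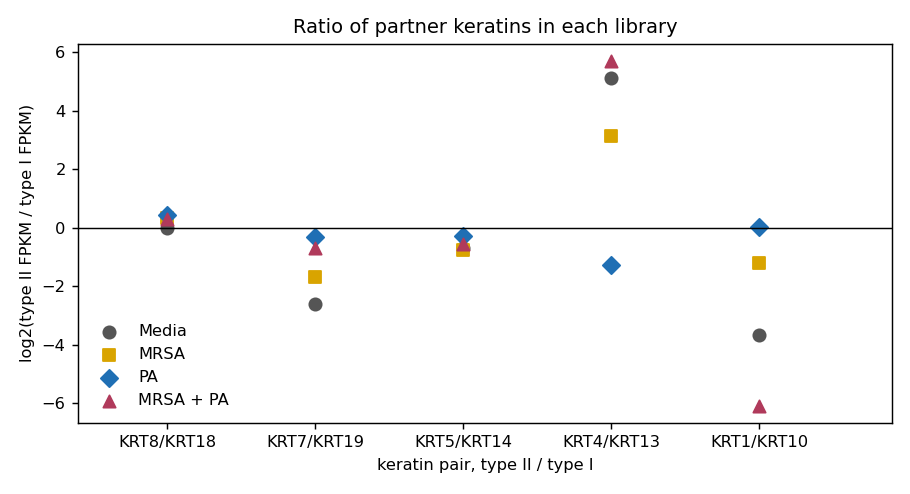
Log2 ratio of type II over type I FPKM (y axis) for 5 known partner pairs (x axis), with 1 point per library and a line at equal FPKM. KRT8/KRT18 and KRT5/KRT14 lie within a narrow range in all 4 libraries, while KRT1/KRT10 runs from 0.0147 in MRSA + PA to 1.02 in PA.

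Keratin genes lie in 2 clusters, type I on chromosome 10 and type II on chromosome 7, where KRT18 is the type I gene at the end. Of the features that stand for a symbol, 23 lie on chromosome 10, 20 on chromosome 7, and that of KRT6A on chromosome 1. Neighbours along a cluster had unlike patterns. On chromosome 7, KRT1 (465 FPKM in PA) lies between KRT2 (0.909) and KRT77 (0.0246). On chromosome 10, KRT10 (456 FPKM in PA) lies between KRT28 (0.0671) and KRT12 (0.947), and KRT15 and KRT19 are adjacent, at 378 and 75.7 FPKM. KRT14, KRT17 and KRT42, which follow each other in the table, were each highest in PA, with log2 differences from Media of 1.83, 3.48 and 1.57. An unnamed feature of 1409 bp between KRT2 and KRT1 was at 8.29 FPKM in PA and 0 in the other 3 libraries.

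**Figure D5:**
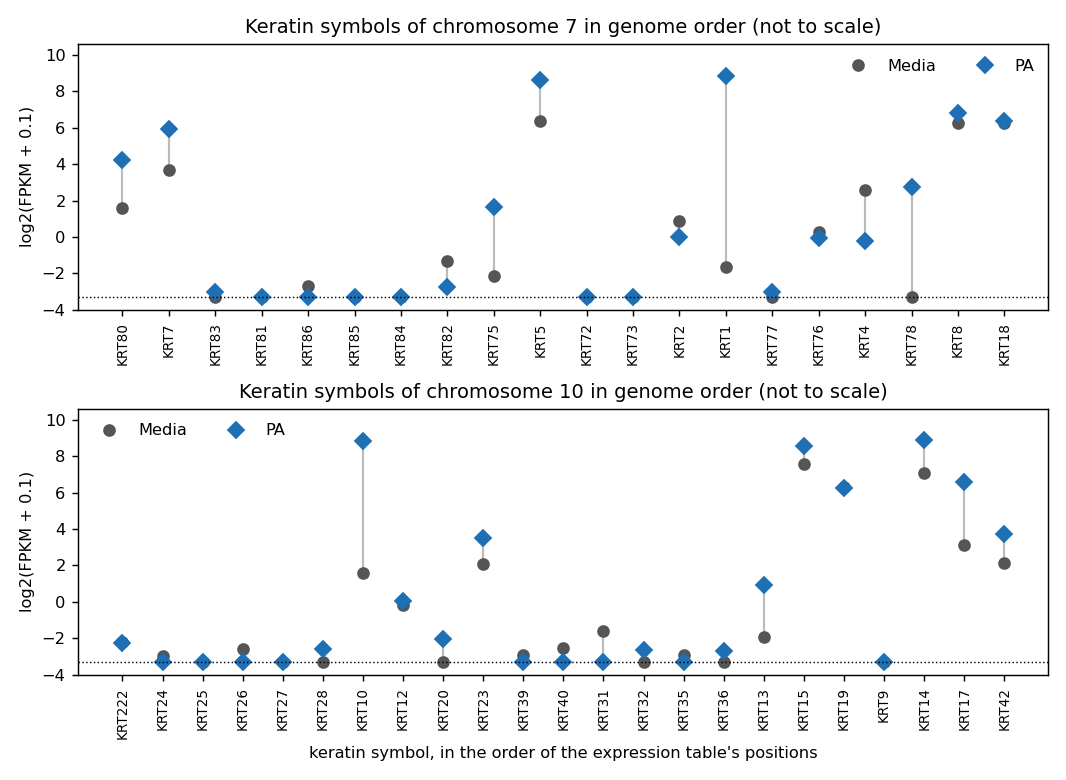
Level of each keratin in Media and PA, as log2(FPKM + 0.1) on the y axis, in the order of the genes along chromosome 7 (upper panel) and chromosome 10 (lower panel), with a grey line joining the 2 libraries of a gene and a dotted line at 0 FPKM. KRT1 and KRT10 stand far above Media in PA while their neighbours stay low, and hair keratins other than KRT75 in PA lie low on the axis.

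Most proteins that anchor keratin filaments to desmosomes and hemidesmosomes were higher in PA than in Media. Of 17 such genes, all with a mean of at least 1 FPKM, 10 were at least 2-fold higher in PA than in Media and none lower, against 10.0% and 7.80% of all features, with a median log2 difference of 1.17. DSG3 is among the 10 but averaged under 1 FPKM outside PA, so its being higher there was fixed by the filter. The corresponding counts of higher genes were 0 in MRSA and 3 in MRSA + PA, against 8.47% and 7.78% of all features. PERP, a desmosomal protein of stratified epithelia, was at 56.8, 48.9, 130.5 and 50.3 FPKM for Media, MRSA, PA and MRSA + PA, and JUP (plakoglobin) was at 44.1, 41.8, 75.2 and 48.0. The desmosomal cadherins DSC3, at 1.37, 0.752, 12.5 and 1.26 FPKM, and DSG3, at 0.675, 0.667, 6.40 and 1.54, had the largest differences of the list. PKP2 (plakophilin 2), at 18.5, 15.0, 12.7 and 13.2 FPKM, was the gene of the list that was lower in PA than in Media. In PA DSC3 and DSG3 were 3.10 and 3.07 above Media on the log2 scale, where JUP differed by 0.77.

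Among 15 regulators of stratified epithelium, 6 were at least 2-fold higher in PA than in Media and none lower, against 10.0% and 7.80% of all features, with a median log2 difference of 0.74. GRHL3 is among the 6 but averaged under 1 FPKM outside PA, so its being higher there was fixed by the filter. In MRSA 0 differed by 2-fold, against 8.47% higher and 4.95% lower, and in MRSA + PA 0 were higher and 1 (KLF4) was lower, against 7.78% and 7.83%. PAX9 was at 57.2, 52.5, 66.7 and 63.8 FPKM, and KLF4, a factor of epidermal barrier formation, was at 63.2, 46.7, 40.3 and 31.2, highest in Media. GRHL1, a factor of desmosomal gene expression, was at 2.16, 2.03, 10.2 and 1.59 FPKM, and TFAP2A, a factor of early keratinocyte genes, was at 1.31, 1.80, 4.99 and 1.83. The last 2 were highest in PA, by 2.19 and 1.85 over Media on the log2 scale.

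General epithelial genes gave the level against which these differences stand. In the pan-epithelial list 4 of 13 genes were at least 2-fold higher in PA than in Media, 0 in MRSA and 1 in MRSA + PA, against 10.0%, 8.47% and 7.78% of all features, and the median log2 difference in PA was 0.71. EPCAM was at 237, 266, 254 and 222 FPKM and CLDN4, a tight junction claudin, at 185, 139, 168 and 164, both within 2-fold in all libraries. CDH3 (P-cadherin, of basal cells) was at 9.10, 15.0, 29.7 and 21.8 FPKM, and CDH1 (E-cadherin) was at 38.6, 57.3, 99.4 and 64.9. These cadherins were higher in every inoculated library than in Media.

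Markers of other cell types also differed between the libraries. The 11 ciliated cell genes summed to 397, 406, 226 and 216 FPKM for Media, MRSA, PA and MRSA + PA, and 1 of 11 was at least 2-fold lower in PA than in Media, against 7.80% of all features. In MRSA + PA, 2 of 11 were lower than in Media, against 7.83%, and 6 of 11 lower than in MRSA, against 5.73%. The 11 secretory cell genes summed to 25994, 11958, 9139 and 14376 FPKM, of which BPIFA1 alone gave 25725, 11118, 7472 and 13362. Of the 9 secretory genes with a mean of at least 1 FPKM, 6 were at least 2-fold higher in PA than in Media and 1 (BPIFA1) lower, against 10.0% and 7.80% of all features, with a median log2 difference of 2.63. TFF3, among the 6, was at 0.246, 0.887, 6.87 and 0.230 FPKM. It averaged under 1 FPKM outside PA, so its being higher there was fixed by the filter. SCGB1A1 was at 248, 807, 1537 and 1000.0 FPKM and MUC5B at 8.82, 16.5, 86.1 and 5.40. The 7 matched leukocyte genes summed to 107, 413, 296 and 302 FPKM. CORO1A was at 55.4, 159, 155 and 165 FPKM, PTPRC at 18.7, 61.3, 64.3 and 56.9, and CD3E at 4.30, 29.9, 27.5 and 24.5. These genes and CD3G, 4 of the 7, were at least 2-fold higher in PA than in Media, against 10.0% of all features. LYZ2, by the higher of its 2 features, was at 9.62, 106, 0.731 and 0.850 FPKM, and MPO at 3.55, 2.61, 1.52 and 2.75. Both were at least 2-fold lower in PA than in Media, against 7.80% of all features. The 7 fibroblast genes summed to 11354, 7076, 6764 and 5936 FPKM. All 8 skeletal muscle genes were at least 2-fold lower in each inoculated library than in Media, against 4.95% (MRSA), 7.80% (PA) and 7.83% (MRSA + PA) of all features. The skeletal muscle genes summed to 4.21 FPKM in PA and 1.76 in MRSA + PA. The part of tissue composition in the keratin differences was not tested.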

How the data were processed

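RNA of SD rat middle ear mucosa was sequenced by the authors as 1 library per condition (Media, MRSA, PA, MRSA + PA). Oligo(dT) selection, the TruSeq RNA kit and HiSeq2500 were used. Groups were taken from the sample titles and the labels of what each sample was inoculated with. The treatment protocol label describes MRSA for every sample and was not used for grouping. The authors' deposited table gives FPKM per feature, already scaled to length and library size. The submitters' processing notes name STAR 2.3.0e, Cufflinks 2.1.1 and edgeR. The methods describe quality-filtered reads, Ensembl annotation and a human reference, while the table lists rat chromosomes and no build. The deposited comparison tables hold the authors' fold changes, p-values and q-values and were not used.

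FPKM values were compared for all 6 pairs of libraries as log2 ratios after 0.1 FPKM was added, over the 15944 features averaging 1 FPKM or more, and counted at 2-fold (Python 3.11.15, pandas 2.3.3). This computation was tested on simulated data. Every keratin of that mean was named, and others where a library reached 1 FPKM. Among genes of that mean, the 2 highest by mean and the 2 of largest PA over Media difference were named in each list. The ciliated, fibroblast and skeletal muscle lists are exceptions, with no gene named. Other genes named from lists were chosen after their values were seen. Gene lists were matched on symbols and written from textbook knowledge. Members and lists were chosen with earlier results of these data known. Keratin symbols were matched to RefSeq (GRCr8), where all 44 were found among 54. Other additions (1 and 0.01 FPKM), scalings, mean filters, folds and choices of feature were tried as alternatives. Depth was not given as counts, so no interval was computed.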

Additional observations from a re-analysis of the deposited data

Results flagged for a closer look

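KRT1 differed from Media in opposite directions in the inoculated libraries, by 1.65 (MRSA), 10.49 (PA) and -1.31 (MRSA + PA) on the log2 scale. The difference between these was not tested, since there is 1 library per condition, and its MRSA and MRSA + PA values rest on levels under 1 FPKM. Features that do not stand for their symbol also had a signal in PA above Media. These were the 219029 bp feature of KRT5 at 275 FPKM, and the KRT6A features of 11869 bp at 48.0 FPKM, 237 bp at 398 FPKM, 35918 bp at 4.56 FPKM and 250 bp at 146 FPKM. The unnamed feature of 1409 bp between KRT2 and KRT1 was at 8.29 FPKM in PA and 0 in the other libraries.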

How the results depend on the processing

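The 16 keratins gave 96 log2 differences over 6 comparisons, and each was recomputed under 7 alternatives of added value, scaling and choice of feature. Of 672 values, 651 kept their side of the 2-fold line, 15 dropped under it and 6 passed it. Of the differences of at least 2-fold, 0 changed direction. Some smaller ones did. With the pan-epithelial scaling, PA over Media went from 0.539 to -0.165 for KRT8 and from 0.105 to -0.599 for KRT18. The number of keratins at least 2-fold apart in either direction was 4 (MRSA over Media), 12 (PA over Media), 6 (MRSA + PA over Media), 2 (MRSA + PA over MRSA), 6 (MRSA + PA over PA) and 12 (PA over MRSA). With 1 FPKM added, MRSA + PA over MRSA gave 1. With no filter on the mean, all 44 symbols counted and gave 8 for MRSA over Media, 10 for MRSA + PA over Media and 5 for MRSA + PA over MRSA. At 1.5-fold, MRSA + PA over MRSA gave 7 and MRSA + PA over PA 11. At 4-fold, MRSA over Media and MRSA + PA over Media gave 2 each, MRSA + PA over MRSA 1 and PA over MRSA 6. With 1 FPKM added the KRT1 differences were 0.65 (MRSA over Media), -0.25 (MRSA + PA over Media) and -0.89 (MRSA + PA over MRSA), all inside 2-fold. Scaling to equal FPKM sums shifted PA over Media by 0.17, which put KRT15 at 1.17, and scaling to the pan-epithelial list moved the median of all features in PA over Media from 0.07 to -0.63.

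No paired analysis was possible because each condition has 1 library. Depth is not given as counts, so low levels such as those of hair keratins cannot be told from 0 with a stated precision.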
